A study of Mus musculus with 5 samples.

Results

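A set of 9 genes of the smooth muscle contractile apparatus (Acta2, Actg2, Myh11, Myl9, Mylk, Tagln, Cnn1, Tpm1 and Tpm2) and the oxytocin receptor gene Oxtr were followed through 5 single-cell libraries of the mouse mammary gland. They were 10 of the 27998 genes in the deposited tables. All 10 were found by symbol, and each was read as raw unique molecular identifiers (UMIs, captured transcripts) in basal, vascular and fibroblast barcodes. A barcode stands for a droplet that the authors called as a cell. None of the 10 genes took part in clustering or in naming the cells.

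The libraries came from the 4th mammary glands of ovariectomized female BALB/cj mice aged 30 weeks, all treated for 1 week from 20 weeks after ovariectomy. OVX mice received DMSO vehicle, and OVX_E2 mice received 17β-estradiol at 1 µg per animal by daily intraperitoneal injection. OVX_E2_P4 mice also received progesterone at 0.1 mg per animal. OVX_E2_PBDE and OVX_E2_P4_PBDE mice received the same hormones and food with polybrominated diphenyl ethers (PBDEs, flame retardants), at 7.1 mg/kg BDE-47, 0.4 mg/kg BDE-100 and 0.9 mg/kg BDE-153. The other 3 groups ate matched food with DMSO, and every group had been ovariectomized. The sources used here name DMSO as the vehicle and do not state whether the food with PBDEs held it. There was 1 library per group, and the number of mice behind a library is not given in the sources used here. No difference between groups could therefore be tested against the variation between animals, and no p-value is given. A difference in preparation between libraries and an effect of treatment cannot be told apart.

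Smooth muscle cells contract when calcium activates myosin light chain kinase (Mylk), which phosphorylates the regulatory light chain (Myl9) so that the smooth muscle myosin heavy chain (Myh11) pulls on smooth muscle actin (Acta2, Actg2). Tropomyosins (Tpm1, Tpm2), calponin (Cnn1) and transgelin (Tagln) lie along the actin filament and stabilise it or tune its use by myosin. In the mammary gland the same machinery is known from the basal, or myoepithelial, cells around ducts and alveoli. They carry the oxytocin receptor, a receptor coupled to Gq proteins, and they contract in response to oxytocin at milk ejection. Vascular smooth muscle, pericytes and activated fibroblasts also use parts of this machinery.

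In GENCODE M21 on GRCm38, Acta2 (ENSMUSG00000035783) spans chr19:34241090-34255590 on the minus strand and Oxtr (ENSMUSG00000049112) chr6:112473683-112489943 on the minus strand. Actg2 lies at chr6:83512905-83536265, Myh11 at chr16:14194535-14291372, Myl9 at chr2:156775420-156781658 and Mylk at chr16:34745210-35002420. Tagln lies at chr9:45929619-45936058, Cnn1 at chr9:22099216-22109630, Tpm1 at chr9:67022590-67049406 and Tpm2 at chr4:43514711-43523765. Tagln overlaps Pcsk7 and Gm48529 on the other strand, and Mylk overlaps 3 genes on the other strand. Acta2 and Actg2 encode near-identical proteins, and whether similar stretches affected the counts of either gene was not tested.

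The start regions of the contractile genes are known for CArG boxes, the sites that serum response factor binds. They are shown because 9 of the 10 genes belong to this contractile programme and Oxtr does not. A match was CC, 6 bases of which at most 1 was not A or T, and GG, on either strand. It was sought in RefSeq windows (GRCm38.p6) from 250 bases before to 50 bases after a RefSeq start. That start can differ from the GENCODE gene start given above. The Mylk window, chr16:34784700-34784999, lay inside the GENCODE span of the gene and away from its start. The Acta2 stretches below also lay inside the GENCODE span. Windows were found for 7 of the 10 genes, and not for Tagln, Myh11 and Actg2. Acta2 and Myl9 each held 2 matches, and Cnn1, Mylk, Oxtr, Tpm1 and Tpm2 held none. Of all 32851 windows, 9.98% held a match. The matches are in capitals in the stretches below, which run 5′ to 3′ on the strand of the gene. The Acta2 stretches are chr19:34255438-34255467 and chr19:34255388-34255417 (minus), Myl9 is chr2:156775214-156775419 (plus) and Oxtr is chr6:112489944-112490075 (minus).
Acta2 distal match: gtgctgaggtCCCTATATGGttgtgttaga
Acta2 proximal match: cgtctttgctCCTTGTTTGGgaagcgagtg
Myl9 upstream bases: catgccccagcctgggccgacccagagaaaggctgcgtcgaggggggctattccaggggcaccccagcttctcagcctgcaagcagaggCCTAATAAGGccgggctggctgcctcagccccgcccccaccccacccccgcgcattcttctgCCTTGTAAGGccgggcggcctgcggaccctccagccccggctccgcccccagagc
Oxtr upstream bases: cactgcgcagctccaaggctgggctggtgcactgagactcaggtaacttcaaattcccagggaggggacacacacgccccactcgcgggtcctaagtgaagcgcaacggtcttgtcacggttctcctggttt
The Oxtr stretch holds no match in these letters. The core sequence GGTCA, which nuclear receptors such as the estrogen receptor bind, was in the windows of Mylk, Oxtr and Tpm2 and in 40.5% of all windows. A match describes the letters only.

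After the filter, 14317 of 14344 barcodes remained, and 80 barcode sequences occurred in more than 1 library. Total UMIs ranged from 19982067 in OVX_E2_P4_PBDE to 42012988 in OVX_E2_PBDE. Named from marker genes, 400 barcodes were basal-like, 234 vascular-like, 7259 fibroblast-like and 2539 hormone-sensing luminal-like (L-Hor-like). The basal-like barcodes numbered 60 in OVX, 71 in OVX_E2 and 63 in OVX_E2_PBDE, with 143 in OVX_E2_P4 and 63 in OVX_E2_P4_PBDE. Median UMIs per barcode over the libraries were 5588 to 11948 in basal-like, 5155 to 9058 in vascular-like, 4252 to 7032 in fibroblast-like and 5533 to 10462 in L-Hor-like barcodes.

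Krt14, a naming marker of basal cells, stood at 1122 to 3895 UMIs per 1000000 class UMIs in basal-like and 3.804 to 14.2 in fibroblast-like barcodes. The marker check left the vascular name broader than smooth muscle. The mural count used markers such as Notch3, without Rgs5 and Des, and the endothelial count used markers such as Pecam1. Of the 234 vascular-like barcodes, 165 had at least 2 UMIs (of 3000 after thinning) of both the mural and the endothelial markers. A further 68 had endothelial markers only, and 1 had mural markers only, so pericytes and endothelial cells could not be taken apart. All 9 mural and all 8 endothelial markers were detected there. Of 6 vascular smooth muscle markers, Pln, Rergl and Kcnmb1 were at 0 UMIs, Map3k7cl had 2 and Nrip2 had 8. Mustn1, with 244 UMIs, carried nearly all of that list. These barcodes are therefore called vascular-like and not smooth muscle.

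The contractile genes and Oxtr were higher in basal-like barcodes than in any other class. Levels are in CPM, which is the sum of a gene's UMIs in a class per 1000000 UMIs of that class, with an exact Poisson 95% interval that covers counting error only. Pooled over the libraries, Acta2 stood at 5784 CPM (5713 to 5854) in basal-like, 48.1 CPM (38.6 to 59.1) in vascular-like and 18.4 CPM (17.2 to 19.7) in fibroblast-like barcodes. Oxtr stood at 117 CPM (107 to 128) in basal-like and 3.05 CPM (2.56 to 3.61) in fibroblast-like barcodes. No Oxtr UMI was found among the 1872751 UMIs of the vascular-like barcodes. This allows a level of up to 1.60 CPM at a limit of 3 counts and up to 1.97 CPM by the exact interval. All 10 genes were at least 1.5-fold higher in basal-like than in fibroblast-like barcodes in each of the 5 libraries, against 11.5% of the 12261 genes with enough UMIs. This share is a description, since the 10 genes were chosen as genes of this lineage.

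**Figure D1:**
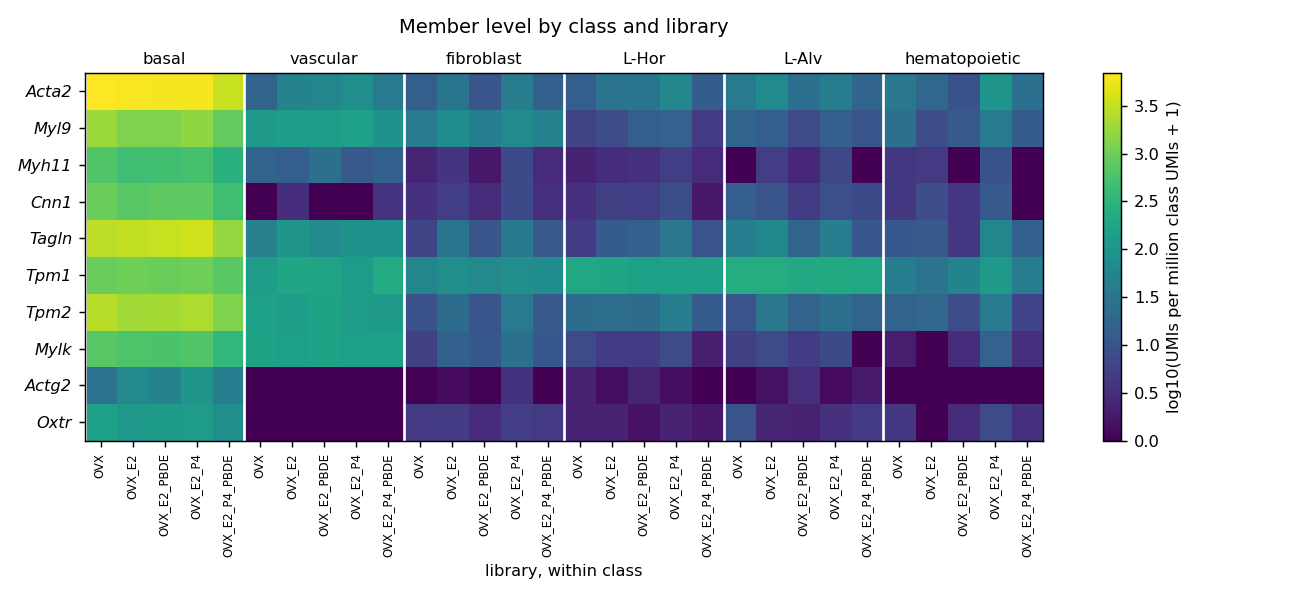
Level of each of the 10 genes (rows) in 6 cell classes of the 5 libraries (columns), coloured by log10 of CPM plus 1. The basal-like columns are the brightest for every gene, Tpm1 is also raised in both luminal classes, and Oxtr and Actg2 are at 0 in all vascular-like columns.

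Most UMIs of these genes lay in the basal-like barcodes, although these were a small share of each library (1.78% to 4.603%). Over the 5 libraries, 83.8% of the Acta2 UMIs, 81.1% of Actg2, 80.3% of Myh11, 79.8% of Tagln and 79.0% of Cnn1 were in basal-like barcodes. The share was 73.2% for Tpm2, 66.6% for Mylk, 61.8% for Myl9 and 60.7% for Oxtr. Tpm1, a tropomyosin that many cell types use, was the exception, with 16.7% in basal-like and 36.6% in mixed luminal barcodes. Such a share also depends on how many barcodes of each class a suspension gave.

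Actins. In basal-like barcodes Acta2 stood at 7001 CPM in OVX, 6499 in OVX_E2 and 6292 in OVX_E2_PBDE, with 6254 in OVX_E2_P4 and 3308 in OVX_E2_P4_PBDE. The first 4 libraries lay within a narrow band and OVX_E2_P4_PBDE lay below them, at 0.529 (0.507 to 0.551) of the OVX_E2_P4 level. Actg2, the enteric smooth muscle actin, had few UMIs, and its level was 27.1 CPM in OVX, 63.7 in OVX_E2 and 50.7 in OVX_E2_PBDE, with 102 in OVX_E2_P4 and 41.8 in OVX_E2_P4_PBDE. These rest on 11, 61, 39, 147 and 38 UMIs. It was the member whose level ranged most, 3.76-fold between the highest and lowest library, and it came from few cells. In OVX, 7 barcodes carried its 11 UMIs, and in OVX_E2_P4, 46 of 143 barcodes carried its UMIs.

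Myosin and its kinase. Myh11 stood in basal-like barcodes at 638.5 CPM in OVX, 456 in OVX_E2 and 480.5 in OVX_E2_PBDE, with 535 in OVX_E2_P4 and 271 in OVX_E2_P4_PBDE. Myl9 stood at 1854, 1258, 1281, 1587 and 831 CPM in the same order of libraries. Mylk stood at 707.5, 613, 578, 625 and 349 CPM. For all 3 genes OVX was the highest library and OVX_E2_P4_PBDE the lowest, and the other 3 libraries lay between.

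Actin-binding proteins. Tagln stood in basal-like barcodes at 2904 CPM in OVX, 3104 in OVX_E2 and 3348 in OVX_E2_PBDE, with 3736 in OVX_E2_P4 and 1744 in OVX_E2_P4_PBDE. Cnn1 stood at 966, 695.5, 784, 783 and 466 CPM and Tpm2 at 2719, 2029, 2149, 2346 and 1246 CPM in the same order. Tpm1 varied least, at 922, 994, 965, 994 and 738 CPM. OVX_E2_P4_PBDE was the lowest library for each of these genes, and OVX was the highest for Cnn1 and Tpm2 but not for Tagln and Tpm1.

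Receptor. Oxtr stood in basal-like barcodes at 160 CPM (124 to 204) in OVX, 113 (92.5 to 136) in OVX_E2 and 125 (101 to 152) in OVX_E2_PBDE, with 128 (110 to 147) in OVX_E2_P4 and 79.3 (62.0 to 99.8) in OVX_E2_P4_PBDE. The values rest on 65, 108, 96, 184 and 72 UMIs. The intervals of OVX_E2, OVX_E2_PBDE and OVX_E2_P4 overlapped one another, and that of OVX_E2_P4_PBDE lay below those of OVX, OVX_E2_PBDE and OVX_E2_P4.

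The low values of OVX_E2_P4_PBDE stood beside a raised amount of luminal RNA in the same barcodes. Krt18, a keratin of luminal cells, was at 2002 CPM in the basal-like barcodes of that library and at 417 to 628 CPM in those of the other libraries. All 13 luminal markers had UMIs there, with a summed level of 4722 CPM, against 11 or 12 of the 13 and 959 to 1488 CPM in the other libraries. Lalba was at 0 in the basal-like barcodes of the 3 libraries OVX_E2, OVX_E2_PBDE and OVX_E2_P4, and Elf5 and Kit were at 0 in OVX. Barcodes with more luminal marker UMIs than 99% of the fibroblast-like barcodes of their library numbered 34 of 60 in OVX, 15 of 71 in OVX_E2 and 13 of 63 in OVX_E2_PBDE, with 3 of 143 in OVX_E2_P4 and 22 of 63 in OVX_E2_P4_PBDE. This limit was set within each library, and fibroblast-like barcodes had summed luminal markers of 243 CPM in OVX and 1079 CPM in OVX_E2_P4. In basal-like barcodes the sum was 959 CPM in OVX and 1488 CPM in OVX_E2_P4. The counts therefore do not rank the libraries by luminal RNA.

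With those barcodes left out, the levels of 9 of the 10 members lay closer together across the libraries, and those of Actg2 lay further apart. Between the highest and the lowest library the 9 members had ranged 1.35- to 2.36-fold and then ranged 1.19- to 1.69-fold, while Actg2 went from 3.76-fold to 5.79-fold. It then stood at 18.2 CPM in OVX, from 3 UMIs, and at 105 CPM in OVX_E2_P4. Acta2 then stood at 5545 CPM in OVX, 5338 in OVX_E2 and 5714 in OVX_E2_PBDE, with 6360 in OVX_E2_P4 and 5535 in OVX_E2_P4_PBDE. Oxtr stood at 146, 113, 117.5, 128 and 125 CPM in the same order. The summed luminal marker level of the remaining barcodes was 559 to 1200 CPM, and 931 CPM in OVX_E2_P4_PBDE. Acta2 was lower than with all barcodes in OVX, OVX_E2 and OVX_E2_PBDE and higher in OVX_E2_P4 and OVX_E2_P4_PBDE. The summed basal markers went from 6614 to 4518 CPM in OVX, 3553 to 3198 in OVX_E2 and 3548 to 2819 in OVX_E2_PBDE. They went from 3343 to 3407 CPM in OVX_E2_P4 and from 2143 to 3688 in OVX_E2_P4_PBDE. The part of this change in the closer levels was not tested.

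**Figure D2:**
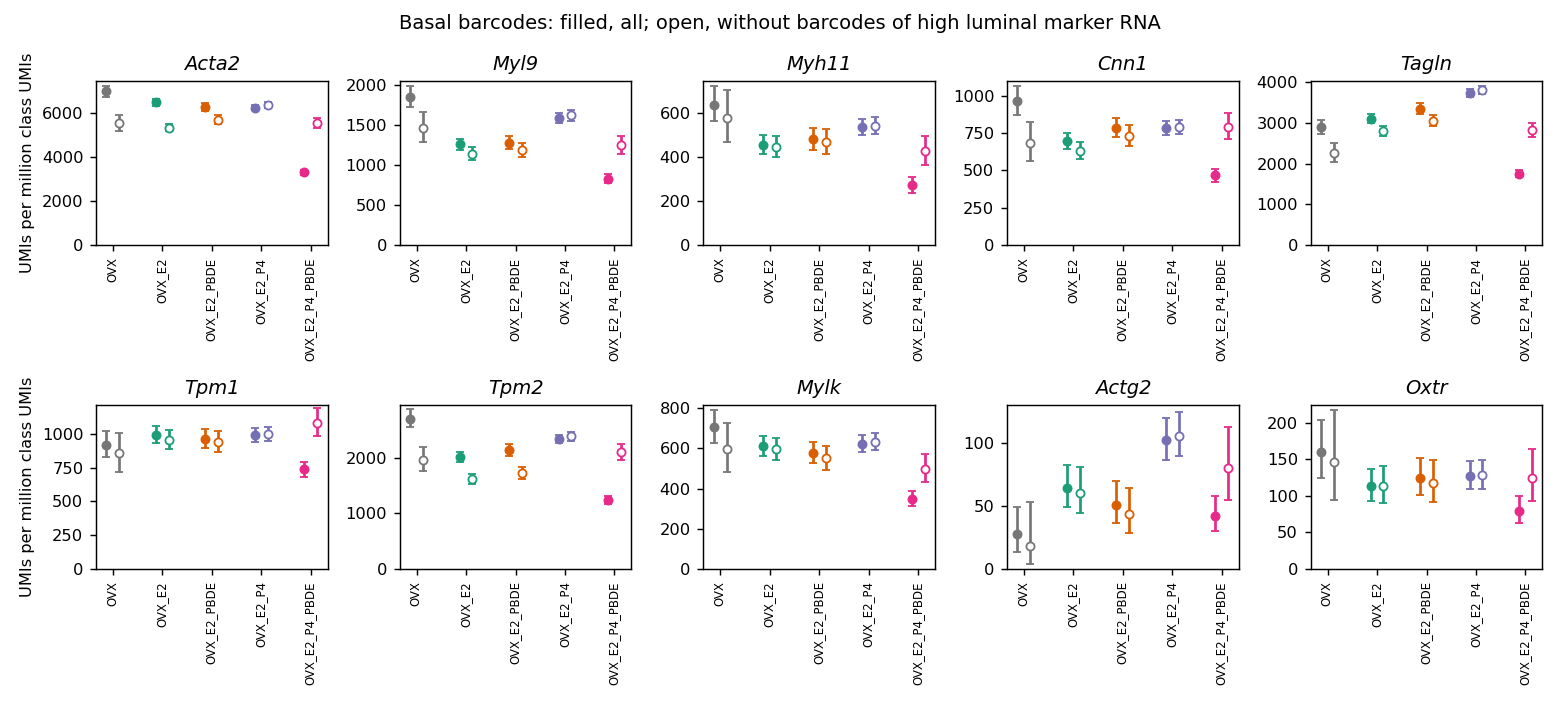
Level in CPM (vertical axis, from 0) of each of the 10 genes in basal-like barcodes of each library, with exact Poisson 95% intervals. Filled points are all basal-like barcodes and open points those left when barcodes of high luminal marker RNA are left out. The filled OVX_E2_P4_PBDE point is the lowest of the filled points for every gene but Actg2, and its open point lies above it for all 10 genes.

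Estradiol was addressed by OVX_E2 against OVX. In basal-like barcodes 1 of the 10 genes, Actg2, was past 1.5-fold, at 2.35-fold higher (1.23 to 4.95, exact conditional interval for counting error). Of the 3076 genes that reached 50 UMIs in the 2 libraries together, 38.8% were past 1.5-fold in either direction. The ratio was 0.704 (0.513 to 0.973) for Oxtr, 0.928 (0.888 to 0.971) for Acta2, 0.679 (0.619 to 0.745) for Myl9 and 1.07 (0.999 to 1.14) for Tagln. The median log2 ratio of the 10 genes was -0.31, and that of all genes -0.07. Without the barcodes of high luminal RNA, Actg2 was at 3.29-fold, from 48 UMIs in both libraries together and so short of the 50 needed to be counted. Of the 9 members with enough UMIs, 0 were past 1.5-fold, while 45.5% of genes were past it, and Oxtr was at 0.778.

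Progesterone without PBDEs was addressed by OVX_E2_P4 against OVX_E2. Only Actg2 was past 1.5-fold among the 10 genes, at 1.60-fold higher (1.18 to 2.19), against 15.7% of 4575 genes. Oxtr was at 1.13 (0.887 to 1.45) and Acta2 at 0.962 (0.932 to 0.994). Myl9, at 1.26 (1.18 to 1.35), and Tagln, at 1.20 (1.15 to 1.26), had intervals above 1, yet no animal replicates stand behind them. Without the barcodes of high luminal RNA, Actg2 was at 1.76-fold and the other members were between 1.04-fold and that value. With every barcode weighted equally, Actg2 was at 1.31-fold and no longer past the limit.

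PBDEs without progesterone were addressed by OVX_E2_PBDE against OVX_E2. None of the 10 genes was past 1.5-fold in basal-like barcodes, against 14.5% of 3570 genes. Their ratios lay between 0.795 (0.518 to 1.21) for Actg2 and 1.13 (1.01 to 1.26) for Cnn1. Oxtr was at 1.11 (0.831 to 1.47) and Acta2 at 0.968 (0.932 to 1.01).

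PBDEs with progesterone were addressed by OVX_E2_P4_PBDE against OVX_E2_P4. Here 9 of the 10 genes were past 1.5-fold and all of them lower, against 24.0% of 4366 genes in either direction. The ratio was 0.467 (0.441 to 0.494) for Tagln, 0.506 (0.436 to 0.585) for Myh11, 0.524 (0.482 to 0.569) for Myl9, 0.621 (0.466 to 0.820) for Oxtr and 0.742 (0.676 to 0.814) for Tpm1, which was not past it. The median log2 ratio was -0.92 over the 10 genes and -0.12 over all genes. Without the barcodes of high luminal RNA, 0 of the 10 were past 1.5-fold, against 19.0% of 3515 genes. Tagln was then at 0.741, Oxtr at 0.975 and Tpm1, the highest, at 1.09. The number past 1.5-fold was 1 of 10 with classes taken from each barcode's own markers and 2 with every barcode weighted equally. It was 7 with the 20% highest Scrublet (doublet) scores left out and 8 at a 5% mitochondrial limit. It was 8 with levels scaled by the median ratio over genes and 9 with the L-Hor-like level subtracted. The share over all genes is not given for these settings. Oxtr itself was between 0.674 and 0.975 in 6 of the alternatives, short of the limit in each.

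Progesterone with PBDEs was addressed by OVX_E2_P4_PBDE against OVX_E2_PBDE, which shares its library with the comparison before. It put 8 of the 10 genes past 1.5-fold and lower, against 23.9% of 3266 genes. The exceptions were Tpm1 at 0.764 (0.688 to 0.850) and Actg2 at 0.826 (0.514 to 1.33). Oxtr was at 0.636 (0.462 to 0.872) and Acta2 at 0.526 (0.502 to 0.550). Without the barcodes of high luminal RNA, 0 were lower and Actg2 was 1.83-fold higher, against 15.3% of 2113 genes, and Oxtr was at 1.06. The number lower was 0 with classes taken from markers, 1 with equal weights and 3 with the highest Scrublet scores left out. It was 7 at a 5% mitochondrial limit, 6 with median scaling and 8 with the L-Hor-like level subtracted.

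The proportion of Oxtr to Acta2 in basal-like barcodes had overlapping counting intervals in the 5 libraries. Oxtr UMIs per 100 Acta2 UMIs were 2.29 (1.76 to 2.93) in OVX, 1.74 (1.42 to 2.10) in OVX_E2 and 1.98 (1.60 to 2.43) in OVX_E2_PBDE, with 2.04 (1.75 to 2.36) in OVX_E2_P4 and 2.40 (1.87 to 3.03) in OVX_E2_P4_PBDE. Luminal barcodes also held UMIs of both genes, and in L-Hor-like barcodes the proportion was 2.89 (1.86 to 4.29). In alveolar luminal-like barcodes it was 5.75 (3.81 to 8.37). The part of luminal RNA in the basal-like proportions was not tested.

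With depth made equal, Oxtr transcripts were detected in a minority of basal-like barcodes and Acta2 transcripts in nearly all. Each barcode was thinned to 3000 UMIs, and shares have exact Clopper-Pearson 95% intervals. An Oxtr UMI was then found in 31.7% of basal-like barcodes in OVX, 25.4% in OVX_E2 and 19.0% in OVX_E2_PBDE, with 22.4% in OVX_E2_P4 and 22.2% in OVX_E2_P4_PBDE, which is 95 of 400 or 23.8% (19.7 to 28.2) in all. Unthinned, the shares were 50% to 69.0%. The share was 0.236% (0.0868 to 0.514) in L-Hor-like barcodes and 0 of 234 in vascular-like barcodes, which allows up to 1.28%. Acta2 was found in 393 of 400 basal-like barcodes, Tagln in 383, Tpm2 in 369, Tpm1 in 356, Myl9 in 349, Cnn1 in 316, Mylk in 285, Myh11 in 266 and Actg2 in 45.

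Basal-like barcodes varied widely in the contractile genes within each library. Per 3000 UMIs the median Acta2 count was 16.5 in OVX, 18 in OVX_E2 and 15 in OVX_E2_PBDE, with 15 in OVX_E2_P4 and 8 in OVX_E2_P4_PBDE, and the highest barcode had 66, 89, 99, 86 and 76. The highest barcodes of OVX_E2_P4_PBDE thus reached into the range of the other libraries while its median lay lower. A median of 7 or 8 of the 10 genes was detected per barcode in every library.

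Acta2, Tpm2, Tagln and Myl9 varied together from barcode to barcode, while Tpm1, Actg2 and Oxtr followed Acta2 more loosely. Across the thinned basal-like barcodes of each library (60 to 143), Spearman's rho of Acta2 with Tpm2 was 0.67 to 0.78, with Tagln 0.57 to 0.73 and with Myl9 0.52 to 0.72. With Cnn1 it was 0.46 to 0.57, with Mylk 0.37 to 0.51, with Tpm1 0.18 to 0.47 and with Myh11, whose counts were low, 0.07 to 0.45. Actg2 had a rho of 0.018 to 0.34 with Acta2 and -0.21 to 0.28 with Tagln, and Tpm1 one of 0.069 to 0.40 with Cnn1. Oxtr had a rho of 0.07 to 0.37 with Acta2, 0.15 to 0.39 with Tpm2 and -0.19 to 0.26 with Actg2, and in such sparse counts a weak correlation is no finding. These points share a library and the luminal RNA described above. Barcodes with an Oxtr UMI had a mean Acta2 count per 3000 UMIs of 28 in OVX, 24.1 in OVX_E2 and 28.2 in OVX_E2_PBDE, with 29.3 in OVX_E2_P4 and 22.4 in OVX_E2_P4_PBDE, and those without had 17.5, 21.3, 17.6, 17.4 and 11.3. The mean Acta2 count was higher beside an Oxtr UMI in all 5 libraries, and so were those of Cnn1 and Mylk. The mean of Myh11 was not higher in OVX, at 1.895 with and 1.951 without an Oxtr UMI, and was higher in the others.

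**Figure D3:**
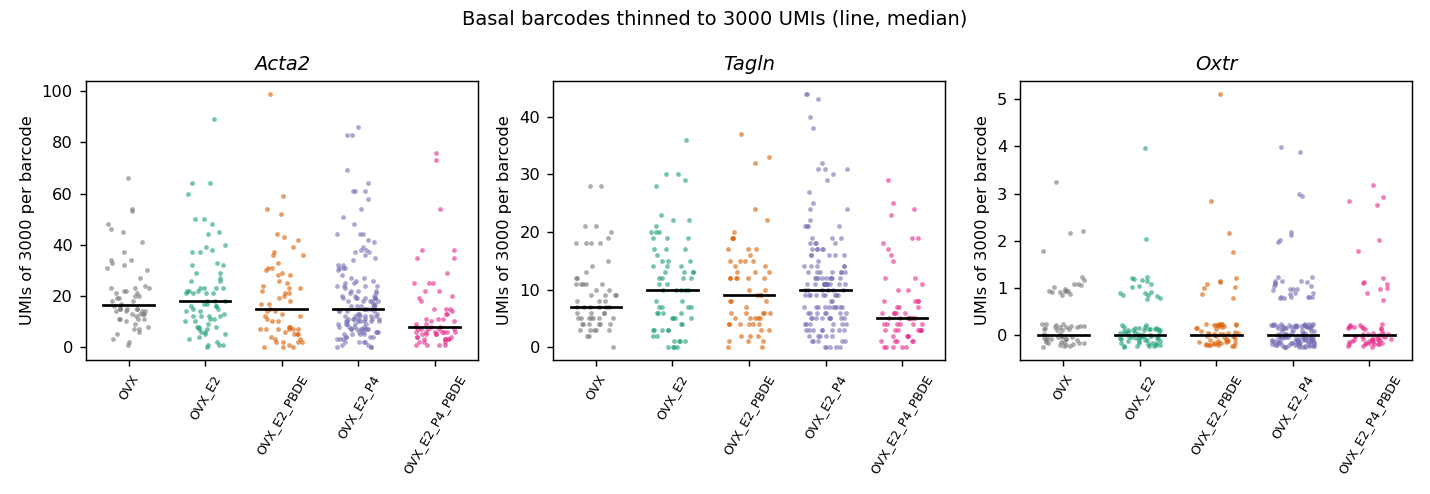
UMIs of Acta2, Tagln and Oxtr per basal-like barcode (1 point each) thinned to 3000 UMIs, by library, with the median as a line. Oxtr points are spread by up to 0.25 vertically because its counts are whole numbers from 0 to 5. Acta2 runs from 0 or 1 to 66 or more in every library and its median is lowest in OVX_E2_P4_PBDE.

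Vascular-like barcodes carried another balance of the same genes. Mylk stood at 171 CPM in OVX, 154.5 in OVX_E2 and 162 in OVX_E2_PBDE, with 149 in OVX_E2_P4 and 148 in OVX_E2_P4_PBDE, a range of 1.16-fold. This was 23.8% to 42.4% of its basal-like level. Acta2, at 15.6, 51.5, 57.1, 77.1 and 35.5 CPM in the same order, was 0.222% to 1.23% of its basal-like level. Pooled levels were 177 CPM for Tpm1, 147 for Tpm2, 132 for Myl9, 80.6 for Tagln and 17.6 for Myh11, while Cnn1 had 2 UMIs in all and Actg2 and Oxtr had none. Vascular-like levels per library rest on 27 to 72 barcodes.

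Mylk and Myl9 were higher where more mural RNA was present. Vascular-like barcodes of all libraries were split by their mural marker UMIs of 3000 (Rgs5 and Des not counted), into 68 with 0 or 1, 87 with 2 to 4 and 79 with 5 or more. Mylk stood at 93.1 CPM (56.1 to 145), 169 (122.5 to 226) and 249 (189.5 to 321) in that order. Myl9 stood at 98.0 (59.9 to 151), 95.8 (62.0 to 141) and 224 (167.5 to 292.5). Acta2 was at 39.2, 53.6 and 54.9 CPM with overlapping intervals. The split pools libraries and was made on a measure taken from the same barcodes.

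**Figure D4:**
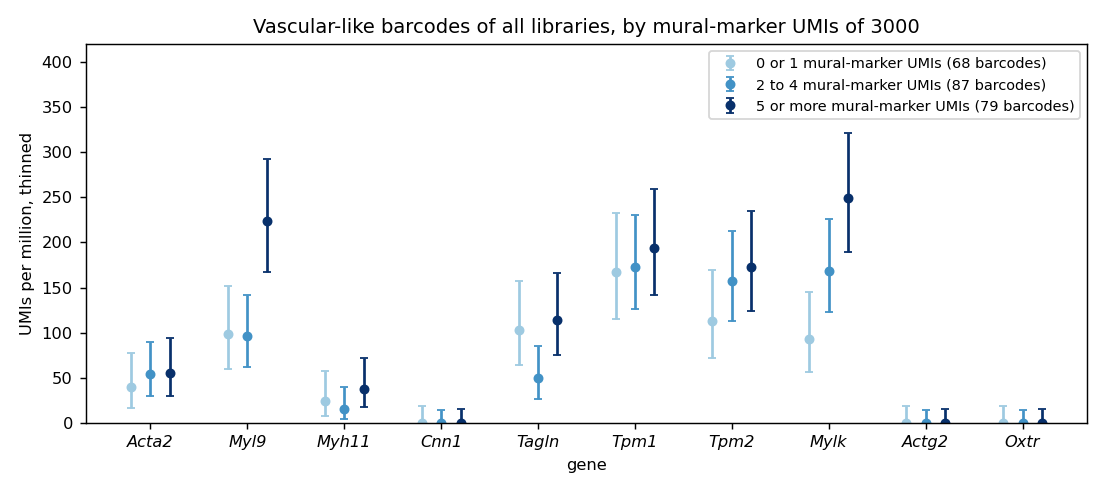
Level (UMIs per 1000000 after thinning to 3000 UMIs per barcode) of the 10 genes in vascular-like barcodes of all libraries with 0 or 1, 2 to 4 and 5 or more mural marker UMIs (Rgs5 and Des not counted), with exact Poisson 95% intervals. Mylk lies at 93.1, 169 and 249 from the lowest to the highest mural class, and Cnn1, Actg2 and Oxtr are at 0 in every class.

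In fibroblast-like barcodes Myl9, Mylk and Oxtr stood above their level in L-Hor-like barcodes, a class that should lack most of these genes and was taken as a background of free RNA. For Oxtr this depended on the class taken. It stood at 2.285 CPM (1.53 to 3.28) in alveolar luminal-like barcodes, which overlapped its fibroblast-like interval of 2.56 to 3.61 CPM. Hematopoietic-like barcodes held 11 Oxtr UMIs among 3334437. Oxtr is therefore not read as above background in fibroblast-like barcodes. For other members the pooled value, which weights each library by the size of its classes, differed from the values within libraries. Pooled, Acta2 was at 0.510 (0.463 to 0.562) of its L-Hor-like level, Cnn1 at 0.659 (0.509 to 0.854), Tagln at 0.820 (0.725 to 0.928), Tpm2 at 0.542 (0.485 to 0.606) and Myh11 at 0.742 (0.537 to 1.03). Within libraries Tpm2 was below 1 in all 5 (0.364 to 0.952) and Cnn1 in 4, with 2.69 (0.672 to 15.5) in OVX_E2_P4_PBDE. Acta2 was above 1 in 3 libraries (1.04, 1.07 and 1.14), and its lowest value was 0.310 (0.248 to 0.386) in OVX_E2_PBDE. Tagln was above 1 in 4 (1.08, 1.25, 1.39 and 2.54) and so was Myh11 (1.03, 1.18, 1.29 and 1.47), both with OVX_E2_PBDE as the exception, at 0.706 and 0.307. Of the values above 1 for Acta2, Cnn1, Tagln and Myh11, that of Tagln in OVX_E2 (1.90 to 3.45) had an interval above 1. Actg2 had 19 fibroblast-like UMIs in all, 15 of them in OVX_E2_P4. Myl9 stood at 4.55 (4.01 to 5.20) of the L-Hor-like level, Oxtr at 2.93 (1.90 to 4.69) and Mylk at 2.57 (2.08 to 3.21). Myl9 and Oxtr were above the L-Hor-like level in all 5 libraries (3.29 to 13.1 and 2.56 to 4.19), although the interval of Oxtr in OVX, with 1 L-Hor-like UMI, ran below 1. Mylk was above it in 4 libraries and at 0.664 (0.269 to 2.12) in OVX.

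Oxtr was low in fibroblast-like barcodes, and its level was lowest in OVX_E2_PBDE. It stood at 3.49 CPM in OVX, 3.58 in OVX_E2 and 1.90 in OVX_E2_PBDE, with 3.92 in OVX_E2_P4 and 3.50 in OVX_E2_P4_PBDE, from 48, 24, 27, 22 and 14 UMIs in nearly as many barcodes. After thinning 0.937% (0.728 to 1.19) of fibroblast-like barcodes had an Oxtr UMI, against the 0.236% in L-Hor-like barcodes. The share was 1.01% (0.507 to 1.81) in alveolar luminal-like and 0.195% (0.004945 to 1.08) in hematopoietic-like barcodes. The fibroblast-like share was thus not above that of alveolar luminal-like barcodes. Oxtr UMIs per 100 Acta2 UMIs were 16.6 (13.7 to 19.9) in fibroblast-like barcodes, above the 2.03 (1.85 to 2.21) of basal-like barcodes, and were higher in each library (9.32 to 26.1). Other classes with few Oxtr UMIs also lay above the basal-like proportion, with 5.75 (3.81 to 8.37) in alveolar luminal-like (L-Alv-like) and 8.59 (4.19 to 15.9) in hematopoietic-like barcodes, from 29 and 11 Oxtr UMIs. In L-Hor-like barcodes the proportion was 2.89 (1.86 to 4.29), from 25. Because fibroblast-like barcodes were many, they held 15.6% of all Oxtr UMIs.

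Between the highest and the lowest library, fibroblast-like levels ranged 6.41-fold for Tagln, 5.84-fold for Mylk, 4.48-fold for Acta2 and 4.47-fold for Tpm2, where basal-like levels ranged 2.14-, 2.03-, 2.12- and 2.18-fold. The L-Hor-like level of Acta2 also ranged, from 12.5 to 60.3 CPM, so a ratio of a gene at its background describes that background too. In OVX_E2 against OVX, 6 of the 8 members with enough UMIs were past 1.5-fold and higher, against 13.6% of 10467 genes. These were Tagln at 5.65-fold (4.31 to 7.48), Mylk at 3.41 (2.44 to 4.79), Tpm2 at 2.78 (2.16 to 3.59), Acta2 at 2.27 (1.85 to 2.79), Myl9 at 1.91 (1.69 to 2.17) and Cnn1 at 1.64 (0.961 to 2.78), and Oxtr was at 1.02 (0.601 to 1.71). Single barcodes weighed on some of these. In OVX_E2 1 barcode held 15.2% of the Acta2 and 22.1% of the Tagln UMIs. With fibroblast-like barcodes that held a basal marker UMI left out, Tagln was at 4.20, Mylk at 3.17, Tpm2 at 2.15, Myl9 at 1.83, Acta2 at 1.63 and Cnn1 at 1.17, no longer past the limit. The summed level of all 5 basal markers was 18.3 CPM in OVX and 15.8 CPM in OVX_E2, each with all 5 markers detected. Of these 6 members, Cnn1 was short of the limit in 4 of the alternatives, at 1.01 to 1.41.

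The make-up of the fibroblast-like class differed between OVX and OVX_E2 as well. The cluster with the highest Mfap4, an extracellular matrix glycoprotein gene, held 4.13% of the fibroblast-like barcodes in OVX and 18.6% in OVX_E2, and the one with the highest Pi16 held 50.5% and 64.5%. Within the Pi16-highest cluster, Mylk was at 3.29 CPM in OVX and 3.97 CPM in OVX_E2, Tagln at 5.66 and 9.58 CPM, Acta2 at 12.2 and 14.95 CPM and Myl9 at 27.8 and 65.4 CPM. In the same order, the Mfap4-highest cluster had 24.5 and 54.0, 2.23 and 81.4, 20.0 and 73.6, and 24.5 and 54.8 CPM. Its OVX values rest on 11, 1, 9 and 11 UMIs. The Lpl-highest cluster had 5.35 and 10.5, 6.02 and 51.7, 16.4 and 40.3, and 76.3 and 116.5 CPM. There, the top barcode for each gene in OVX_E2 held 76.3% of the Tagln and 67.4% of the Acta2 UMIs. The part of cluster make-up in the class ratios was not tested.

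In OVX_E2_P4 against OVX_E2, 4 of 8 members were past 1.5-fold and higher, against 9.07% of 9649 genes. These were Myh11 at 2.13 (1.18 to 3.96), Mylk at 1.72 (1.32 to 2.24), Tpm2 at 1.61 (1.30 to 2.00) and Cnn1 at 1.53 (0.910 to 2.61). Each of the 4 was short of the limit in at least 1 alternative. At a 5% mitochondrial limit 1 of the 8, Myh11, was past it, with Mylk at 1.49, Tpm2 at 1.27 and Cnn1 at 1.21. With the highest Scrublet scores left out 2 were past it, with Mylk at 1.49 and Tpm2 at 1.49. With classes taken from markers 2 were past it, with Myh11 at 1.15 and Cnn1 at 1.39. Acta2, at 1.38, and Tagln, at 1.13, were at 1.90 and 1.55 without the barcodes that held a basal marker UMI. The summed basal marker level of fibroblast-like barcodes was 27.1 CPM in OVX_E2_P4, the highest of the libraries, against 15.8 CPM in OVX_E2.

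In OVX_E2_PBDE against OVX_E2, 6 of 8 members were past 1.5-fold and lower, against 9.45% of 10441 genes. Acta2 was at 0.308 (0.245 to 0.385), Tagln at 0.322 (0.257 to 0.401), Tpm2 at 0.405 (0.318 to 0.517), Cnn1 at 0.472 (0.269 to 0.827), Oxtr at 0.531 (0.295 to 0.961) and Myl9 at 0.613 (0.543 to 0.691). Of these, Oxtr was not read as above background in this class. With the highest Scrublet scores left out 4 were lower, with Cnn1 and Myl9 both at 0.679, and with median scaling 5 were, with Myl9 at 0.689. In OVX_E2_P4_PBDE against OVX_E2_P4, 4 of 6 members were lower, against 12.4% of 8891 genes, with Tpm2 at 0.307 (0.217 to 0.428), Tagln at 0.311 (0.218 to 0.435), Acta2 at 0.339 (0.249 to 0.455) and Mylk at 0.418 (0.289 to 0.594). The summed basal marker level moved with these, at 7.75 CPM in OVX_E2_PBDE and 12.3 CPM in OVX_E2_P4_PBDE against the 15.8 and 27.1 CPM of the libraries without PBDEs. All 5 basal markers were detected in each. With the fibroblast-like barcodes that held a basal marker UMI left out, the same 6 of 8 and the same 4 of 6 members were past 1.5-fold and lower. The part of basal RNA in the result was not tested. In OVX_E2_P4_PBDE against OVX_E2_PBDE 1 of 6, Acta2 at 1.52 (1.10 to 2.09), was past 1.5-fold, against 10.3% of 10094 genes, and it was at 1.48 without barcodes of high luminal RNA.

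Within the fibroblast-like class, Mylk was higher in the Mfap4-highest than in the Pi16-highest cluster of every library. In each library the clusters with the highest Pi16, the highest Lpl and the highest Mfap4 were compared, a choice made after the values had been seen. In OVX_E2_P4_PBDE 1 cluster was the highest for both Lpl and Mfap4. Mylk in the Mfap4-highest cluster stood at 24.5 CPM in OVX, 54.0 in OVX_E2 and 50.5 in OVX_E2_PBDE, with 113 in OVX_E2_P4 and 20.1 in OVX_E2_P4_PBDE, and in the Pi16-highest cluster at 3.29, 3.97, 3.16, 5.03 and 6.88 CPM. The intervals of the 2 clusters did not overlap in any library. Mylk reached 3.46% to 18.1% of its basal-like level in the Mfap4-highest cluster, where Acta2 reached 0.220% to 1.13% of its own.

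Tagln in the Mfap4-highest cluster stood at 2.23 CPM in OVX, from 1 UMI, 81.4 in OVX_E2 and 39.9 in OVX_E2_PBDE, with 86.4 in OVX_E2_P4 and 21 in OVX_E2_P4_PBDE. In the Pi16-highest cluster it stood at 5.66, 9.58, 4.63, 11.7 and 6.88 CPM. It was higher in the Mfap4-highest cluster in the 4 libraries with estradiol and not in OVX. Oxtr is not read as above background in this class, and its cluster values are given as counts only. In the Pi16-highest cluster it stood at 5.26 CPM in OVX, 4.91 in OVX_E2 and 2.94 in OVX_E2_PBDE, with 5.03 in OVX_E2_P4 and 3.79 in OVX_E2_P4_PBDE. In the Mfap4-highest cluster it had 1, 1, 0, 0 and 3 UMIs. The ratio of the Mfap4-highest to the Pi16-highest cluster had an interval below 1 in OVX_E2, at 0.160 (0.00386 to 0.992), and in OVX_E2_PBDE, at 0 (0 to 0.762), and intervals that held 1 in the other 3 libraries. Of the 3 clusters Myl9 was highest in the Lpl-highest one, at 76.3, 116.5, 52.6, 94.4 and 65.8 CPM.

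The basal, mural and endothelial marker lists had overlapping ranges in these clusters, and the vascular smooth muscle list did not. The 5 basal markers summed to 9.03 to 26.6 CPM in the Mfap4-highest and 7.57 to 24.2 CPM in the Pi16-highest clusters, with 3 or 4 and with 4 or 5 of them detected. The 9 mural markers summed to 37.2 to 70.3 CPM and 25.5 to 52.3 CPM, with 4 to 7 and with 6 to 8 detected. Higd1b was at 0 in the Mfap4-highest clusters of OVX, OVX_E2 and OVX_E2_PBDE and in the Pi16-highest cluster of every library. Within libraries, the mural sums of the Mfap4-highest and Pi16-highest clusters were 40.1 and 38.3 CPM in OVX and 42.3 and 52.3 in OVX_E2. They were 37.2 and 25.5 in OVX_E2_PBDE, 63.4 and 39.9 in OVX_E2_P4 and 70.3 and 46.1 in OVX_E2_P4_PBDE. The 8 endothelial markers summed to 8.61 to 20.2 CPM and 9.08 to 15.8 CPM. The 6 vascular smooth muscle markers summed to 10.8 to 80.4 CPM in the Mfap4-highest and 195 to 267 CPM in the Pi16-highest clusters, the order opposite to that of Mylk. Mustn1 made up at least 99.02% of that list in the Pi16-highest clusters, Pln and Rergl were at 0 in all of them, and the markers other than Mustn1 summed to 0.841 to 2.41 CPM there and 2.66 to 8.10 CPM in the Mfap4-highest clusters.

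**Figure D5:**
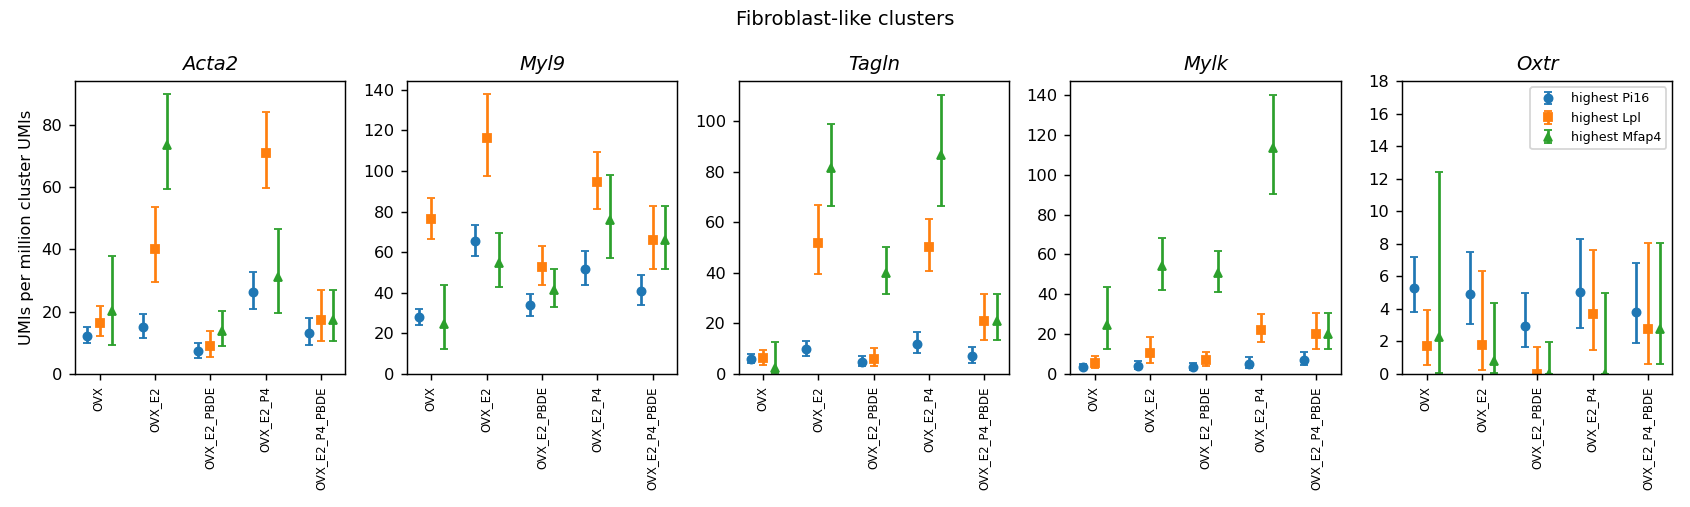
Level in CPM of Acta2, Myl9, Tagln, Mylk and Oxtr in the fibroblast-like clusters with the highest Pi16, Lpl and Mfap4 of each library, with exact Poisson 95% intervals and axes from 0 that differ between panels. Mylk lies higher in the Mfap4-highest (20.1 to 113) than in the Pi16-highest cluster (3.16 to 6.88) of every library. In OVX_E2_P4_PBDE the Lpl and Mfap4 points are the same cluster.

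The other genes of the pathway were read from 3 lists. Of 21 genes of oxytocin receptor signalling, 11 to 13 had enough UMIs in basal-like barcodes, and the genes past 1.5-fold were lower in each case. They were 3 of 11 in OVX_E2 against OVX, where 38.8% of all genes were past it in either direction, and 0 of 13 in OVX_E2_P4 against OVX_E2, where 15.7% were. They were 1 of 12 in OVX_E2_PBDE against OVX_E2 (14.5% of all genes), 4 of 12 in OVX_E2_P4_PBDE against OVX_E2_P4 (24.0%) and 2 of 12 in OVX_E2_P4_PBDE against OVX_E2_PBDE (23.9%). Counts this small are not read as a result about the list. Rgs2, which limits Gq signalling, stood at 200 CPM in OVX and 57.4, 62.3, 82.5 and 47.4 CPM in OVX_E2, OVX_E2_PBDE, OVX_E2_P4 and OVX_E2_P4_PBDE. OVX was thus the high library, and OVX_E2 was at 0.288 of it. Ppp1r14a, an inhibitor of myosin phosphatase, had the list's highest ratio of basal-like to fibroblast-like level, 14.3. Gna11, a Gq family subunit, was at 27.5 CPM in OVX_E2_P4_PBDE and 41.9 to 56.4 CPM in the other libraries, and its fibroblast-like level was no lower, at a ratio of 0.891. In all, 6 of 20 genes were at least 1.5-fold higher in basal-like than fibroblast-like barcodes in all 5 libraries, against 11.5% of all genes, namely Plcb1, Itpr1, Calm2, Rgs2, Ppp1r12a and Ppp1r14a.

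Of 24 contractile and filament partners, 20 to 23 were counted per comparison. In OVX_E2 against OVX 2 were higher and 8 lower of 21, against 38.8% of all genes past 1.5-fold in either direction. In OVX_E2_P4 against OVX_E2 2 were higher and 1 lower of 23, against 15.7%, and in OVX_E2_PBDE against OVX_E2 1 was higher and 2 lower of 21, against 14.5%. These 3 counts lay near the share over all genes. In OVX_E2_P4_PBDE against OVX_E2_P4 0 were higher and 8 lower of 23, against 24.0%, and in OVX_E2_P4_PBDE against OVX_E2_PBDE 1 was higher and 7 lower of 20, against 23.9%. The last 2 comparisons share the OVX_E2_P4_PBDE library and its luminal RNA. Lmod1, which seeds actin filaments in smooth muscle, was 212.5-fold higher in basal-like than in fibroblast-like barcodes, and stood at 140.5 CPM in OVX and 63.6 to 82.6 CPM in the others. Flna, which crosslinks actin filaments, was the gene past 1.5-fold in all 5 comparisons, at 478, 315, 478, 492 and 313 CPM from OVX to OVX_E2_P4_PBDE in the order used above. Csrp1, a LIM protein of smooth muscle, stood at 1839, 1142, 1000, 1221 and 658.5 CPM, and Cald1 (caldesmon) at 998, 873, 908, 971 and 593.5 CPM. Cnn2, Pdlim7, Tgfb1i1, Tpm3 and Actb were each past it in 2 or 3 comparisons. Actb stood lowest in OVX_E2_PBDE, at 1466 CPM against 2546 to 3126 CPM elsewhere.

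Of 10 transcription factors of the contractile programme, 4 were counted in each comparison. In OVX_E2 against OVX 1 was higher and 1 lower, in OVX_E2_P4_PBDE against OVX_E2_P4 1 was lower, and in the other 3 none was past 1.5-fold, so that these counts are too small to set against the share over all genes. Trp63, a basal cell factor that was also a naming marker, stood at 106, 82.5, 83.1, 95.01 and 57.3 CPM in basal-like barcodes and was 194.8-fold higher there than in fibroblast-like barcodes. Of 7 factors with enough UMIs, 3 were at least 1.5-fold higher in basal-like than fibroblast-like barcodes in all 5 libraries, against 11.5% of all genes. They were the naming marker Trp63 and Mkl1 and Srf, the partners through which actin dynamics reach CArG boxes. The other factors counted were not, and so small a count is not read as a result about the list. Srf stood at 41.8 to 52.9 CPM in every library, OVX_E2_P4_PBDE included.

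Among the genes whose levels were most like those of Oxtr, Krt5 and Trp63 were markers that had named the basal-like class. Likeness was Pearson's r of log2(CPM + 10) over 39 points, each a class of at least 20 barcodes in 1 library. These points share libraries, and the basal-like points stand far from the rest, so r describes the contrast between classes. For Oxtr the 5 highest were Lama1 at 0.984, Krt5 at 0.983, Speer4e at 0.982, Trp63 at 0.982 and Gm21083 at 0.979. For Acta2 they were Krt5 at 0.976, Lama1 at 0.969, Trp63 at 0.967, Col17a1 at 0.965 and Cdh3 at 0.963. For Myh11 they were Moxd1 at 0.981, Col17a1 at 0.972, Trp63 at 0.971, Lmod1 at 0.970 and Tenm2 at 0.965. Cdh3 was a naming marker too. Lama1, a laminin chain, was at 39.6 to 47.2 CPM in the basal-like barcodes of the 5 libraries, a narrower range than that of Oxtr, and at most 0.746 CPM in fibroblast-like barcodes.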

How the data were processed

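The authors aligned reads to mm10 and counted UMIs with Cell Ranger 2.0.0, and deposited raw UMI counts per gene and called barcode, without normalization. Libraries were made with the Chromium 3′ v2 kit from unsorted glands. Barcodes needed at least 500 genes, 1000 UMIs and no more than 10% mitochondrial UMIs. Clustering was done per library in Seurat 5.3.0 (R 4.3.3; 2000 variable genes without the members, 10 principal components, 20 neighbours, resolution 0.3 for OVX and 0.5 otherwise). Clusters were named from marker scores of at least 0.25 (basal and vascular 0.5 with a vascular marker minimum of 2000 CPM, proliferating 0.9), limits set after the clusters were seen. Mural and endothelial clusters, planned apart, could not be separated and form 1 vascular class. The basal name was given first, whatever the luminal markers, and the basal-like cluster of OVX_E2_P4_PBDE had an epithelial marker score of 0.398. A cluster of 22 barcodes in OVX_E2_P4_PBDE, with fibroblast and epithelial markers, was named mixed and given no level. Clusters with markers of both luminal classes were named mixed luminal and are in the UMI shares. Scrublet (scanpy 1.11.5) was an alternative. Levels are UMIs per 1000000 class UMIs (CPM), with exact Poisson intervals, and ratios have exact conditional binomial intervals (Python 3.11.15, scipy 1.17.1, numpy 2.4.6). Ratios were counted past 1.5-fold with at least 50 UMIs over both libraries. Shares used barcodes thinned to 3000 UMIs, and a count of 0 is given with the limit of 3 counts. The ratio intervals and the 1.5-fold count were tried on simulated Poisson counts of class sums. Such counts hold no variation between barcodes, doublets, luminal RNA or naming of classes, so these were not tested. The members and lists were chosen with earlier results of these data known. All members were named, with the 5 genes most like Oxtr, Acta2 and Myh11 and, from each list, genes past 1.5-fold in at least 2 basal comparisons or with the highest basal to fibroblast ratio. Other genes named from the lists were chosen after their values were seen.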

Additional observations from a re-analysis of the deposited data

Results flagged for a closer look

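In basal-like barcodes, 5 genes had a progesterone ratio above 1 without PBDEs and below 1 with PBDEs, with neither counting interval holding 1. The difference was not tested, since each value is a ratio of 2 libraries. The first ratio divided by the second was 1.94 for Myl9 (1.26 and 0.649), 2.08 for Myh11 (1.17 and 0.564), 1.90 for Cnn1 (1.13 and 0.594), 2.31 for Tagln (1.20 and 0.521) and 1.99 for Tpm2 (1.16 and 0.580). Without barcodes of high luminal RNA the ratios were 1.42 and 1.05 for Myl9, 1.21 and 0.912 for Myh11, 1.26 and 1.09 for Cnn1, 1.36 and 0.925 for Tagln and 1.47 and 1.23 for Tpm2. Of these 5 genes, Myh11 and Tagln therefore had ratios on opposite sides of 1 without those barcodes. Their levels with PBDEs had overlapping intervals there. Myh11 was at 427 CPM (365 to 496) in OVX_E2_P4_PBDE and 468 (415 to 526.5) in OVX_E2_PBDE. Tagln was at 2825 CPM (2663 to 2994) and 3054 (2915 to 3198). With every barcode weighted equally, the progesterone ratio without PBDEs was 0.975 for Myh11 and 0.965 for Cnn1, below 1 as with PBDEs. With all barcodes, Oxtr (1.13 and 0.636), Mylk (1.02 and 0.604) and Actg2 (1.60 and 0.826) also had ratios above and below 1. For each of them, 1 of the 2 intervals held 1.

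The PBDE ratio had a counting interval above 1 without progesterone and below 1 with it for Cnn1 (1.13 and 0.595, quotient 1.90) and Tagln (1.08 and 0.467, quotient 2.31), also untested. Myl9 (1.02 and 0.524), Myh11 (1.05 and 0.506), Tpm2 (1.06 and 0.531) and Oxtr (1.11 and 0.621) had ratios on the same sides of 1. Their intervals without progesterone held 1. All these ratios come from the same 4 libraries and are not independent of the values above. Without barcodes of high luminal RNA they were 1.16 and 1.00 for Cnn1 and 1.09 and 0.741 for Tagln.

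The barcodes that the filter left out also held member UMIs, while the 2 left out of OVX held 0. In OVX_E2, 4 barcodes held 5 UMIs, and in OVX_E2_P4_PBDE 1 barcode held 3. In OVX_E2_PBDE, 10 barcodes held 333, of which 273 lay in 1 barcode with 88 basal marker UMIs. In OVX_E2_P4, 10 barcodes held 522, and 1 of them, with 7242 UMIs, held 254 member UMIs (Acta2 74, Tagln 61, Tpm2 32, Myl9 31, Mylk 22, Myh11 15, Oxtr 0). That barcode had 84 UMIs of the vascular smooth muscle markers, 19 of the mural markers and 0 of the basal and endothelial markers. It took no part in any level above.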

How the results depend on the processing

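No paired analysis was possible because each group had 1 library. The median log2 ratio of the 9 contractile genes in basal-like barcodes was -0.21 (OVX_E2 to OVX), 0.21 (OVX_E2_P4 to OVX_E2), 0.025 (OVX_E2_PBDE to OVX_E2), -0.92 (OVX_E2_P4_PBDE to OVX_E2_P4) and -0.75 (OVX_E2_P4_PBDE to OVX_E2_PBDE). With classes taken from each barcode's markers, it was 0.0022, -0.19, -0.41 and -0.017 in all but OVX_E2_P4 to OVX_E2. With barcodes of high luminal RNA left out it was 0.33, -0.34 and 0.072 in OVX_E2_P4 to OVX_E2 and the last 2 of these, the last with its direction turned. With the 20% highest Scrublet scores left out it was -0.63 and -0.54 in the last 2, and with equal weights -0.036, -0.49 and -0.47 in OVX_E2_P4 to OVX_E2 and the last 2. The log2 ratio of Oxtr was -0.69 in OVX_E2_P4_PBDE to OVX_E2_P4 and -0.036 without barcodes of high luminal RNA. In OVX_E2_P4_PBDE to OVX_E2_PBDE it was -0.65, with -0.12 for classes from markers and, turned, 0.087 without barcodes of high luminal RNA. That setting also turned Cnn1 in the first of these, to 0.0022, and Myl9, Cnn1 and Tpm2 in the second, to 0.072, 0.12 and 0.29. The cause was not tested. Of 86 log2 ratios of single genes, the number that moved by less than their counting interval was 74 at a 5% mitochondrial limit, 72 with median scaling, 57 with Scrublet scores, 56 without barcodes of high luminal RNA, 51 with equal weights and 47 with classes from markers. The share of all genes past 1.5-fold with no minimum beyond 1 UMI was 51.3%, 39.4%, 37.5%, 44.1% and 42.7%, against 38.8%, 15.7%, 14.5%, 24.0% and 23.9%. A resolution of 1.0 gave the same barcodes. At a 5% mitochondrial limit OVX and OVX_E2_P4 had no vascular-like barcodes and give no value there. Leaving out fibroblast-like barcodes with a basal marker UMI, or the barcode with most UMIs of a gene, was chosen after seeing the data. Basal-like barcodes were few, so counts under 100 for Actg2 and Oxtr limit those ratios most.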
